A study of Homo sapiens with 6 samples.

Results

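G0S2 and 9 genes that build, coat or break down lipid droplets, 10 of the 17156 genes in the deposited gene table, were followed in SiHa cells with reduced VPS13C. The 10 were chosen by symbol, as a set of droplet turnover genes built around G0S2, with results of this same comparison known. Their differences between the groups are therefore given as a description with an error, and whether they passed the fit across all genes is recorded without support being drawn from it. All 10 were found and all 10 passed the filter on low counts, although LIPE did so at no more than 18 counts in any library.

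Lipid droplets are organelles with a core of triacylglycerol and sterol esters under a single phospholipid layer. DGAT1 and DGAT2 catalyse the last step of triacylglycerol synthesis, perilipins such as PLIN2 and PLIN3 coat the droplet, and stored fat is released in order by adipose triglyceride lipase (PNPLA2), hormone-sensitive lipase (LIPE) and monoacylglycerol lipase (MGLL). PNPLA2 is switched on by its partner ABHD5 and held back by the small proteins G0S2 and HILPDA, which bind to it. G0S2 was first described as a gene induced when resting lymphocytes re-enter the cell cycle, and HILPDA is known as a target of hypoxia-inducible factors.

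The compared groups were 3 shVPS13C libraries, from cells with VPS13C knocked down, and 3 shcontrol libraries, from control cells. SiHa is a human papillomavirus-positive line from a squamous carcinoma of the cervix, and every library came from cells kept for 48 h in 20 µM cisplatin, so that neither the response to the drug nor untreated cells were measured. The labels name no hairpin sequence and do not say whether a line was a clone or a pool, or whether the replicates were separate cultures, so that errors measure only the spread between these libraries. The study's title links loss of VPS13C, a lipid transfer protein also found at lipid droplets, to cisplatin resistance.

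Library totals lay between 15643965 and 16333424 estimated counts. VPS13C itself stood at 23.7, 25.1 and 27.5 CPM (counts scaled to library size) in shVPS13C libraries and at 50.0, 54.9 and 49.6 CPM in shcontrol libraries, a log2 difference of -1.02 (edgeR adjusted p = 4.77e-10), lower in every shVPS13C library as its label states. The epithelial keratin gene KRT8 averaged 1412 ± 12.7 FPKM (the authors' level scaled to transcript length and sequencing depth) in shVPS13C and 1448 ± 22.8 FPKM in shcontrol (SD, n = 3 each). The basal keratin gene KRT5 was listed at 0 in the shVPS13C libraries and averaged 0.02 FPKM in shcontrol. The summed level of the 4 adipocyte markers present was 2.23 to 2.73 FPKM in shVPS13C and 1.81 to 3.32 FPKM in shcontrol, with the hormone genes ADIPOQ and LEP at or near 0. Of 4 fibroblast markers only the collagen gene COL1A1 was tested, and it rose (log2 0.43, edgeR adjusted p = 0.0017). The sum of the 4 was 3.44 to 3.91 FPKM in shVPS13C against 2.70 to 2.78 FPKM in shcontrol, with DCN and PDGFRB at or near 0. The 7 markers listed as squamous epithelial summed to 3288 to 3421 FPKM in shVPS13C and 3452 to 3539 FPKM in shcontrol, without overlap. Nearly all of this came from the keratin genes KRT8, KRT18 and KRT17, so the sum describes these and not the whole list. EPCAM averaged 3.69 FPKM in shVPS13C and 3.08 FPKM in shcontrol, and TP63 0.27 FPKM in shVPS13C and 0.28 FPKM in shcontrol. Of these markers 1 of 6 tested passed, the cadherin gene CDH1 (log2 0.27, higher). The part of these marker differences in the results was not tested. The leukocyte markers summed to 39.0 to 41.3 FPKM in shVPS13C and 38.0 to 40.8 FPKM in shcontrol, nearly all from the lysosomal gene CD68, with PTPRC at 0.

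G0S2 (Entrez 50486) is a short gene of 979 bases on chromosome 1, from 209675412 to 209676390 on GRCh38.p14, forward strand. Its exons shared no base with an exon of another GENCODE gene, and 0 of its 817 stretches of 50 bases occurred in another gene's transcript. Introns of other genes were not examined. The 250 bases before its start and before that of PLIN2, the perilipin with the highest level here, are shown because G0S2 is the gene on which the comparison turns and PLIN2 the coat gene set beside it. Capitals mark every match, on either strand, to the TATA box core TATAA, the hypoxia response core ACGTG, the AP-1 site TGANTCA, the nuclear receptor core AGGTCA or the CCAAT box. The sequences are from RefSeq on GRCh38.p14, at chr1:209675162-209675411 (forward strand) and chr9:19127493-19127742 (reverse strand), each written 5′ to 3′ along its gene.
G0S2: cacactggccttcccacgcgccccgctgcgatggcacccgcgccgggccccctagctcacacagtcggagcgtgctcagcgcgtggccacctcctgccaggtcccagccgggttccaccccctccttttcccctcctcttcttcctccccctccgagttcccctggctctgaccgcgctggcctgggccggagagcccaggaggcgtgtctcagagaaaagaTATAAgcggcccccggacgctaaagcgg
PLIN2: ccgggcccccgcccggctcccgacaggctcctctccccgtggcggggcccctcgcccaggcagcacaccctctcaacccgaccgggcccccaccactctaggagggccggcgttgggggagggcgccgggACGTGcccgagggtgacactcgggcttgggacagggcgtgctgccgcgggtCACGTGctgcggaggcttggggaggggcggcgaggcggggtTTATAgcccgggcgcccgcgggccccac

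G0S2 held a single match, to TATAA, 28 bases before its start. PLIN2 held TATAA on the opposite strand at the same distance and ACGTG at 120, 69 and 68 bases, the last pair being both strands of a single palindrome. Of 27305 promoter windows of 250 bases, 19.9% held TATAA, 18.3% ACGTG, 6.84% TGANTCA, 12.4% AGGTCA and 32.7% CCAAT. The G0S2 window was 69.2% G or C with 21 CG pairs and that of PLIN2 78.0% with 28, where the median window had 57.6% and 10. Promoter entries were matched for 6 of the 10 genes. A match of letters is a description of the window and shows no binding.

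Levels per length spanned a wide range, and the order of G0S2 against DGAT1 and PLIN3 was not the same in every library. Over all 6 libraries the lipase gene PNPLA2 had the highest level, at 142 to 160 FPKM. PLIN2 followed at 79.1 to 92.0 FPKM, DGAT1 at 46.8 to 57.2, G0S2 at 32.0 to 49.7, PLIN3 at 38.5 to 42.2, MGLL at 21.0 to 24.7, ABHD5 at 12.9 to 16.9 and HILPDA at 10.9 to 13.2 FPKM. DGAT2 lay at 4.25 to 5.41 FPKM and LIPE at 0.18 to 0.42 FPKM. The ranges of DGAT1 and G0S2, of G0S2 and PLIN3, and of ABHD5 and HILPDA overlapped, so these neighbours did not stand apart, while the other neighbours did. PNPLA2 thus had a far higher level per length than LIPE in these cells, and DGAT1 above DGAT2 by a ratio of 11.2 ± 1.44 in shVPS13C and 11.2 ± 0.469 in shcontrol (FPKM ratio, SD, n = 3 each).

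**Figure D1:**
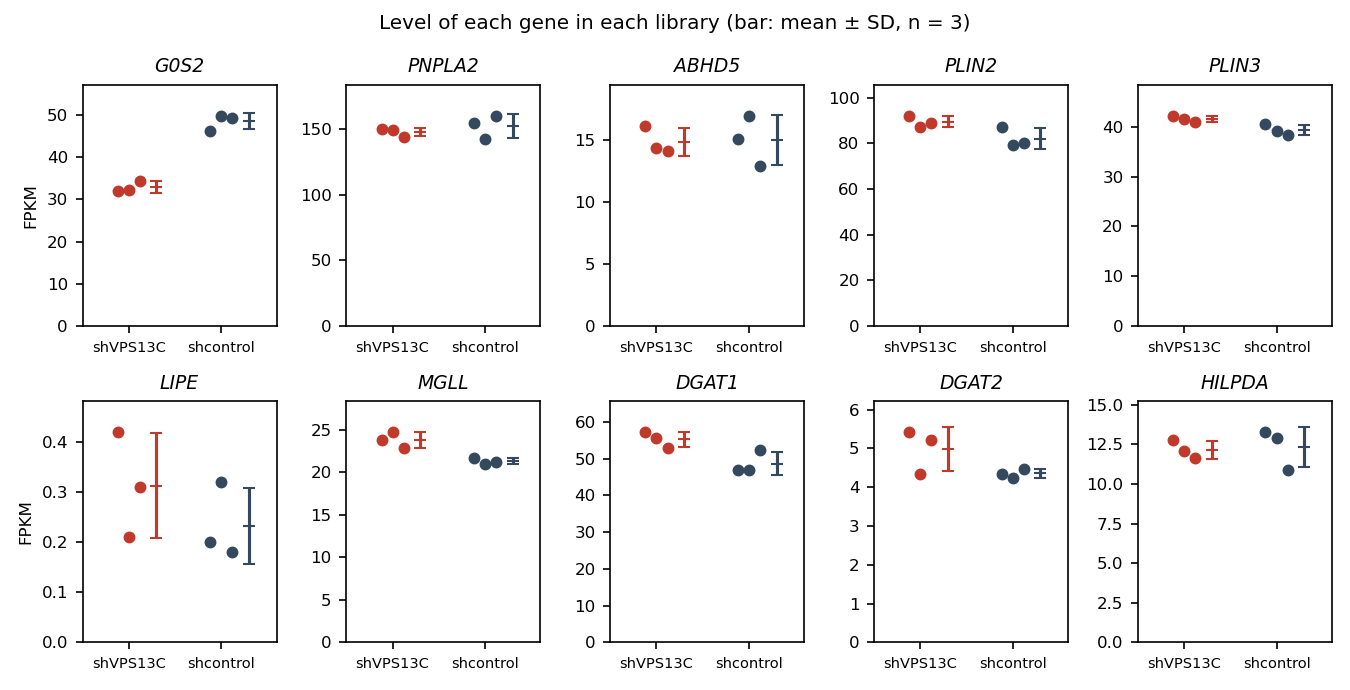
Level of each of the 10 genes in FPKM, by library, with shVPS13C on the left and shcontrol on the right of each panel; points are libraries and bars the mean ± SD (n = 3). The G0S2 points of shVPS13C lie at 32.0 to 34.4 FPKM, all below those of shcontrol at 46.3 to 49.7 FPKM, while the points of PNPLA2, ABHD5, LIPE, DGAT2 and HILPDA overlap between groups, as do those of PLIN2 by a narrow margin on this scale.

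G0S2, the inhibitor of PNPLA2, was lower in shVPS13C. It had 308, 307 and 328 counts in shVPS13C libraries, against 450, 473 and 462 counts in shcontrol libraries. On the per-length scale these were 32.0, 32.3 and 34.4 FPKM in shVPS13C and 46.3, 49.7 and 49.4 FPKM in shcontrol. Every shVPS13C library lay below every shcontrol library. Scaled to library size, G0S2 averaged 19.6 ± 0.837 CPM in shVPS13C and 28.99 ± 1.13 CPM in shcontrol (SD, n = 3 each), a fold of 0.677 and a log2 difference of -0.56 (SE 0.069, 95% confidence interval -0.71 to -0.42, from the edgeR fit). The set was built around this value, so it is a description of these libraries and its interval is no separate support. In bulk RNA, fewer cells that express a gene and less RNA per cell cannot be told apart.

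The lipase that G0S2 inhibits had no difference of that size. PNPLA2 (Entrez 57104, chromosome 11, 818914 to 825573) stood at 149.8, 149.4 and 143.8 FPKM in shVPS13C and at 154.7, 142.2 and 159.8 FPKM in shcontrol. The groups overlapped, and the log2 difference was -0.05 (95% confidence interval -0.13 to 0.04). The FPKM ratio of inhibitor to lipase, G0S2 over PNPLA2, was 0.214, 0.216 and 0.239 in shVPS13C and 0.299, 0.350 and 0.309 in shcontrol, with no overlap. This ratio carries the G0S2 difference and is no separate evidence of it. HILPDA (Entrez 29923, chromosome 7, 128455878 to 128458418), the other inhibitor, stood at 12.7, 12.1 and 11.6 FPKM in shVPS13C and at 13.2, 12.9 and 10.9 FPKM in shcontrol. Its groups overlapped, with a log2 difference of -0.03 (95% confidence interval -0.21 to 0.16), and its ratio to PNPLA2 averaged 0.0822 ± 0.00249 in shVPS13C and 0.0814 ± 0.0118 in shcontrol (SD, n = 3 each). ABHD5 (Entrez 51099, chromosome 3, 43690870 to 43734371), the co-activator, stood at 16.1, 14.3 and 14.1 FPKM in shVPS13C and at 15.1, 16.9 and 12.9 FPKM in shcontrol. These groups overlapped too, with a log2 difference of 0.03 (95% confidence interval -0.10 to 0.15). The intervals of PNPLA2, HILPDA and ABHD5 all lay above the G0S2 interval, but the difference between genes was not tested. Leaving out single libraries moved ABHD5 between -0.03 and 0.08 and HILPDA between -0.11 and 0.03 on the log2 scale, so the sign of both depended on the libraries used.

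The coat genes PLIN2 and PLIN3 had slightly higher means in shVPS13C, and neither passed the fit across all genes. PLIN2 (chromosome 9, 19108388 to 19127492), which coats most droplets outside fat cells, stood at 92.0, 87.2 and 89.1 FPKM in shVPS13C and at 87.2, 79.1 and 80.0 FPKM in shcontrol. These FPKM overlapped by a narrow margin. On the CPM scale the PLIN2 groups just failed to overlap, with shVPS13C library 2 at 140.8 and shcontrol library 1 at 140.6. The CPM means were 144 ± 3.34 in shVPS13C and 132 ± 7.59 in shcontrol (SD, n = 3 each). The log2 difference of PLIN2 was 0.12 (95% confidence interval 0.03 to 0.22). PLIN3 (Entrez 10226, chromosome 19, 4838341 to 4867667), which moves from the cytosol to forming droplets, stood at 42.2, 41.7 and 41.0 FPKM in shVPS13C and at 40.5, 39.2 and 38.5 FPKM in shcontrol. The PLIN3 groups did not overlap on the FPKM or the CPM scale, but the log2 difference of 0.08 (95% confidence interval -0.01 to 0.17) had an interval that included 0. PLIN2 over PLIN3 was 2.15 ± 0.0495 in shVPS13C and 2.08 ± 0.0675 in shcontrol (FPKM ratio, SD, n = 3 each).

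Of the lipases that follow PNPLA2, MGLL was slightly higher and LIPE was too low to compare. MGLL (Entrez 11343, chromosome 3, 127689066 to 127823185), which releases the last fatty acid and also breaks down an endocannabinoid, stood at 23.8, 24.7 and 22.8 FPKM in shVPS13C and at 21.7, 21.0 and 21.2 FPKM in shcontrol. All shVPS13C libraries lay above all shcontrol libraries, and the log2 difference was 0.13 (95% confidence interval 0.04 to 0.22). LIPE (Entrez 3991, chromosome 19, 42401514 to 42427388) had 18, 8 and 14 counts in shVPS13C and 9, 14 and 8 counts in shcontrol. Its log2 difference of 0.36 had a 95% confidence interval of -0.42 to 1.13, so a difference was not detectable at this depth.

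Both acyltransferases of triacylglycerol synthesis had higher means in shVPS13C. DGAT1 (Entrez 8694, chromosome 8, 144314584 to 144326852), of the endoplasmic reticulum, stood at 57.2, 55.7 and 53.0 FPKM in shVPS13C and at 47.0, 46.8 and 52.3 FPKM in shcontrol. The groups did not overlap, though shcontrol library 3 came within 1 FPKM of the lowest shVPS13C library. On the CPM scale DGAT1 averaged 103 ± 4.07 in shVPS13C and 90.5 ± 6.07 in shcontrol (SD, n = 3 each), with a log2 difference of 0.19 (95% confidence interval 0.09 to 0.29). DGAT2 (Entrez 84649, chromosome 11, 75768778 to 75801534), which also acts at the droplet surface, stood at 5.41, 4.34 and 5.22 FPKM in shVPS13C and at 4.35, 4.25 and 4.47 FPKM in shcontrol. Its groups overlapped through shVPS13C library 2, and the log2 difference of 0.20 had a 95% confidence interval of -0.02 to 0.41.

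**Figure D2:**
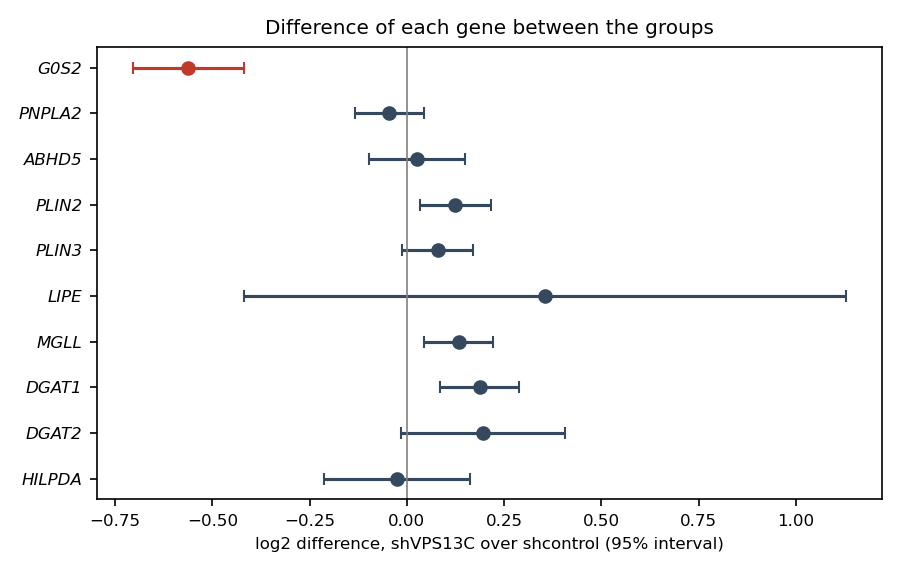
Log2 difference of each of the 10 genes, shVPS13C over shcontrol, with its 95% confidence interval from the edgeR fit across all genes. G0S2 lies at -0.56, PNPLA2, ABHD5 and HILPDA lie within 0.05 of 0, and PLIN2, MGLL and DGAT1 have intervals above 0.

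Across the 10 genes, 7 log2 differences were above 0 and 3 below, and 6 of the intervals included 0. In the edgeR quasi-likelihood fit over 12671 genes, 4.5% passed an adjusted p of 0.05, 2.27% higher and 2.23% lower. Of the 10 genes, G0S2 passed as lower and DGAT1 as higher, and 8 did not pass. CPM ranges of the groups did not overlap in 23.1% of all genes tested, 11.8% higher and 11.3% lower. Among the 10 they did not overlap in 5, of which PLIN2, PLIN3, MGLL and DGAT1 were higher and G0S2 lower. Because these genes were chosen with this comparison known, nothing is read from the counts. The call of DGAT1 ended without shVPS13C library 1 or 2, without shcontrol library 1 or 2, and with limma on FPKM, with a log2 difference between 0.16 and 0.24 over all alternatives. PLIN2 passed only without shcontrol library 1, at 0.17. Over the 11 alternatives the log2 difference of G0S2, the value the set was built around, ranged from -0.60 to -0.53.

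Reads of overlapping genes could not be separated by strand, since the use of strand is not given in the sources used here. Exon bases shared with a gene on the opposite strand made up 17.8% in PLIN3, 10.4% in PNPLA2, 9.6% in LIPE and 3.36% in DGAT1, where the partner was the heat shock factor gene HSF1 at 187 CPM. DGAT2 shared 5.35% with AP003031.1 and 1.48% with AP001922.1, and ABHD5 2.25% with ANO10 at 12.8 CPM, all on the opposite strand. HILPDA shared 8.99% of its exon bases with a gene on its own strand and DGAT1 10.7%. Stretches of 50 bases found in transcripts of other genes ranged from 0% in G0S2 and 0.658% in MGLL to 13.5% in PLIN3. Their part in the differences was not tested.

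The transcript table gave G0S2 a single RefSeq transcript, NM_015714.4, which held all of its counts. Main transcripts carried most of the counts of PLIN3 (NM_005817.5, 97.1% ± 1.02 in shVPS13C and 96.4% ± 1.69 in shcontrol), PLIN2 (NM_001122.4, 96.2% ± 0.57 in shVPS13C and 95.4% ± 0.257 in shcontrol) and PNPLA2 (the predicted XM_017018028.1, 91.6% ± 0.679 in shVPS13C and 91.3% ± 1.29 in shcontrol; SD, n = 3 each). DGAT1 was split between a predicted transcript with 61.7% ± 1.95 in shVPS13C and 62.0% ± 0.257 in shcontrol, and NM_012079.6 with the rest. These divisions stayed within the spread of the libraries except in PLIN2, whose main transcript had a higher share in every shVPS13C library, by less than 1 percentage point between the group means. A minor PNPLA2 transcript, NM_020376.4, held 1.80% ± 0.352 in shVPS13C and 2.97% ± 0.732 in shcontrol, and a minor ABHD5 transcript, NM_001365650.1, held 5.46% ± 0.92 in shVPS13C and 3.72% ± 0.284 in shcontrol (SD, n = 3 each), both without overlap.

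MGLL had the most transcripts, 11 listed and 9 with counts, and its division differed between groups. Its main transcript, NM_001003794.2, held 64.2%, 60.0% and 60.4% of MGLL counts in shVPS13C libraries and 69.0%, 73.5% and 70.5% in shcontrol libraries. The predicted transcript XM_017005666.2 held 7.98%, 12.3% and 10.7% in shVPS13C and 5.86%, 2.09% and 4.31% in shcontrol. The second RefSeq transcript, NM_007283.6, averaged 17.8% ± 2.34 in shVPS13C and 17.3% ± 2.09 in shcontrol (SD, n = 3 each), which overlapped. In counts, NM_001003794.2 had 962, 879 and 871 in shVPS13C against 959, 959 and 918 in shcontrol, while XM_017005666.2 had 119, 180 and 154 in shVPS13C against 81.4, 27.2 and 56.2 in shcontrol. The groups overlapped in the first and not in the second. Over transcripts with a mean of at least 10 counts in genes with several, shares did not overlap between groups in 9.82% of 40150, and among the 10 genes in 6 of 24. Transcript counts are estimates that divide reads of 50 bases among similar isoforms, and no test was made.

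**Figure D3:**
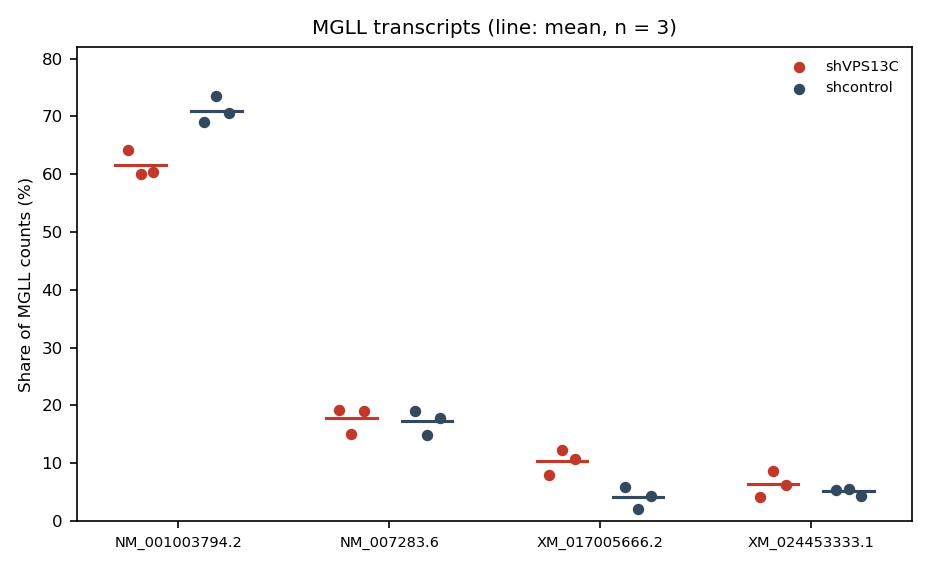
Share of MGLL counts, in percent, held by the 4 leading transcripts in each library, with shVPS13C left of shcontrol; points are libraries and lines group means. NM_001003794.2 lies at 60.0% to 64.2% in shVPS13C and 69.0% to 73.5% in shcontrol, and XM_017005666.2 at 7.98% to 12.3% in shVPS13C and 2.09% to 5.86% in shcontrol.

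Beyond the 10 genes, 5 lists of droplet, fatty acid and G0/G1 switch genes were examined. Of their 73 tested genes 5 rose, 1 fell and 67 did not pass, beside 2.27% higher and 2.23% lower among all genes tested, with a median log2 difference of 0.02 where all genes tested had -0.001. The lists were chosen with earlier results of these data known, so no enrichment is read from this total. In the list of other coat and droplet-forming genes 0 of 16 tested passed by edgeR, DESeq2 or limma, with 3 at an unadjusted p under 0.05 by edgeR and a list median of -0.02. Of these 16, 3 had lower CPM in every shVPS13C library than in any shcontrol library and 1 had higher. Among all genes tested the same held for 11.3% lower and 11.8% higher, so nothing is read from this count. The 3 lower were TMEM159 (log2 -0.26, interval -0.43 to -0.09), CIDEB (log2 -0.24, -0.42 to -0.07) and PLIN4 (log2 -0.30, -0.61 to 0.009). The interval of PLIN4, a perilipin gene, thus included 0. On the FPKM scale the groups overlapped in PLIN4 and CIDEB and not in TMEM159. The 1 higher was FITM2 (log2 0.16, interval 0.03 to 0.28). All of these were named after their values were seen, with intervals from the edgeR fit. AUP1, a droplet and endoplasmic reticulum protein, had the highest mean level over the 6 libraries of all genes in the lists, at 187 ± 6.14 FPKM in shVPS13C and 180 ± 4.84 FPKM in shcontrol (SD, n = 3 each), with a log2 difference of 0.05. In the list of triacylglycerol and sterol ester synthesis outside DGAT1 and DGAT2, 0 of 18 tested passed by any of the 3 tools, with 3 at an unadjusted p under 0.05 by edgeR, a median of 0.02 and a range of -0.16 to 0.12.

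Among other lipases and fatty acid carriers, 1 of 16 tested fell and 15 did not pass, with a median of -0.01. Over all genes tested 2.27% were higher and 2.23% lower, so a single call is no result about this list. The member that fell was DDHD2, a phospholipase that also hydrolyses triacylglycerol in the brain, with 49.2, 46.7 and 52.6 CPM in shVPS13C against 61.2, 55.4 and 55.5 CPM in shcontrol. All shVPS13C libraries lay below all shcontrol libraries, with a log2 difference of -0.21 (SE 0.056, edgeR adjusted p = 0.0269). Its call ended without shVPS13C library 1 or 2 or shcontrol library 1, and with DESeq2 and limma (adjusted p between 0.00736 and 0.174 over the alternatives).

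In the list of PPAR receptors, their targets and mitochondrial fatty acid oxidation, 3 of 18 tested rose, 0 fell and 15 did not pass, beside 2.27% higher and 2.23% lower among all genes tested, and the list median was 0.12. HADHA, a subunit of the trifunctional protein of fatty acid oxidation, averaged 93.8 ± 1.82 FPKM in shVPS13C and 83.8 ± 1.70 FPKM in shcontrol (SD, n = 3 each; log2 0.16, SE 0.038, edgeR adjusted p = 0.0135). ETFA, an electron carrier that takes electrons from the acyl-CoA dehydrogenases, averaged 192 ± 7.85 FPKM in shVPS13C and 170 ± 9.24 FPKM in shcontrol (log2 0.17, edgeR adjusted p = 0.0249). CPT2, which frees acyl groups from carnitine inside mitochondria, averaged 20.1 ± 0.218 FPKM in shVPS13C and 17.3 ± 0.589 FPKM in shcontrol (log2 0.21, edgeR adjusted p = 0.0231). All 3 were higher in every shVPS13C library than in any shcontrol library on the CPM scale, as were 9 of the 18, beside 11.8% of all genes tested. This list too was chosen with earlier results of these data known, so its counts are a description and no support is drawn from them. ACADVL, the first dehydrogenase for long chains, had 170 ± 9.76 FPKM in shVPS13C and 166 ± 5.76 FPKM in shcontrol (log2 0.03, edgeR adjusted p = 0.761). The call of HADHA ended without shVPS13C library 1 or 3, that of ETFA also without shcontrol library 3, and that of CPT2 without any library except shcontrol 1. DESeq2 called HADHA and ETFA, and limma on FPKM called none of the list.

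Other genes named for the switch from G0 to G1, taken by their older G0S symbols with earlier results of these data known, were a further list. Of 5 tested, FOS and FOSB, components of the transcription factor AP-1, rose and 3 did not pass, with a median of 0.17. Among all genes tested 2.27% were higher and 2.23% lower, with a median of -0.001. FOS had 106, 95.3 and 89.9 CPM in shVPS13C and 91.8, 81.3 and 69.4 CPM in shcontrol, so the groups overlapped (log2 0.26, edgeR adjusted p = 0.0265). FOSB had 122.6, 119 and 107 CPM in shVPS13C and 111, 88.0 and 84.8 CPM in shcontrol, which also overlapped (log2 0.30, edgeR adjusted p = 0.0146). Both calls ended without shVPS13C library 1 or 2 or shcontrol library 2 or 3, with log2 values of 0.17 to 0.37 for FOS and 0.22 to 0.43 for FOSB, and with DESeq2 and limma. EGR1, another immediate early gene, was at 60.4 ± 1.02 FPKM in shVPS13C and 60.5 ± 0.701 FPKM in shcontrol (SD, n = 3 each). RGS2 (log2 0.17, 95% confidence interval 0.01 to 0.32) and ZFP36 (0.13, 0.03 to 0.23), named after their values were seen, did not pass either. Their CPM were higher in every shVPS13C library than in any shcontrol library, as in 11.8% of all genes tested, and nothing is read from this.

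**Figure D4:**
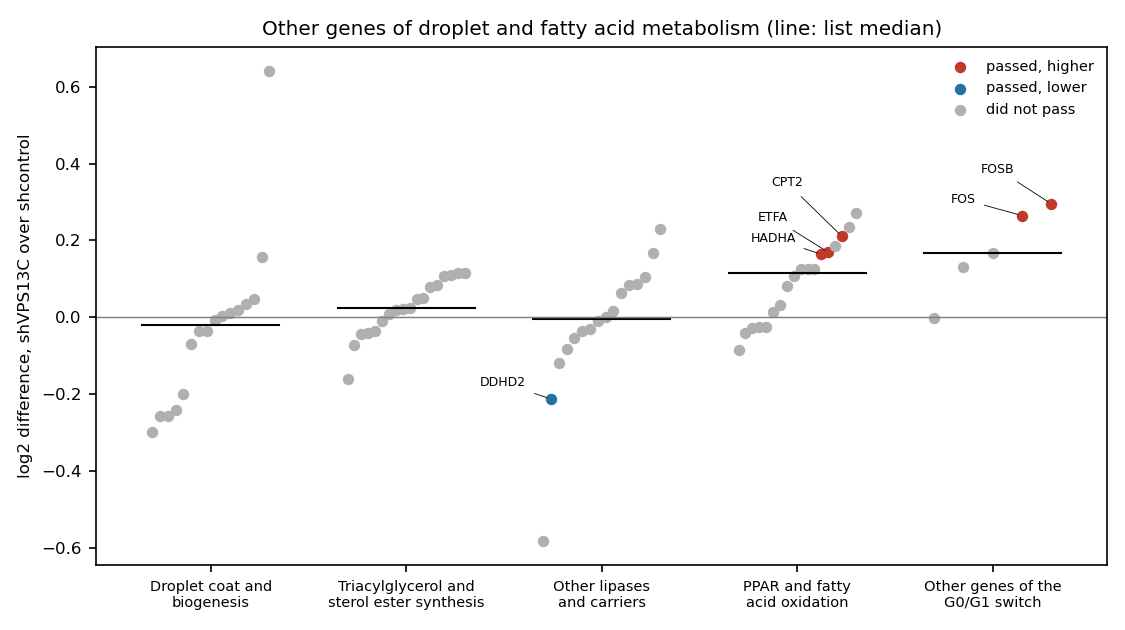
Log2 difference, shVPS13C over shcontrol, of the 73 tested genes in 5 lists of droplet, fatty acid and G0/G1 switch genes; each point is a gene, the black line is the list median, and color marks genes past an edgeR adjusted p of 0.05. The 5 genes that rose lie in the lists of fatty acid oxidation and of G0S genes, and the 1 that fell, DDHD2, among the other lipases.

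The genes nearest to G0S2 over the 6 libraries were ranked by the root mean square distance between centred log2 CPM values, among 10666 other genes averaging 5 CPM or more, leaving out symbols that begin with LOC, whose median distance was 0.291. They were TNIP1, an inhibitor of NF-kB signalling (0.0722), the cystine importer gene SLC7A11 (0.0856), the growth arrest gene GADD45A (0.0900), the pseudokinase gene TRIB3 (0.0939) and VGLL3, a cofactor of TEAD transcription factors (0.0979). Their log2 differences were -0.67 for TNIP1, -0.49 for SLC7A11, -0.43 for GADD45A, -0.51 for TRIB3 and -0.43 for VGLL3. The distance is set mostly by the difference between the groups, so it lists genes that were lower by a like amount in the same libraries. SLC7A11 is an example, with 21.7, 20.6 and 21.0 CPM in shVPS13C against 30.5, 29.2 and 28.9 CPM in shcontrol.

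**Figure D5:**
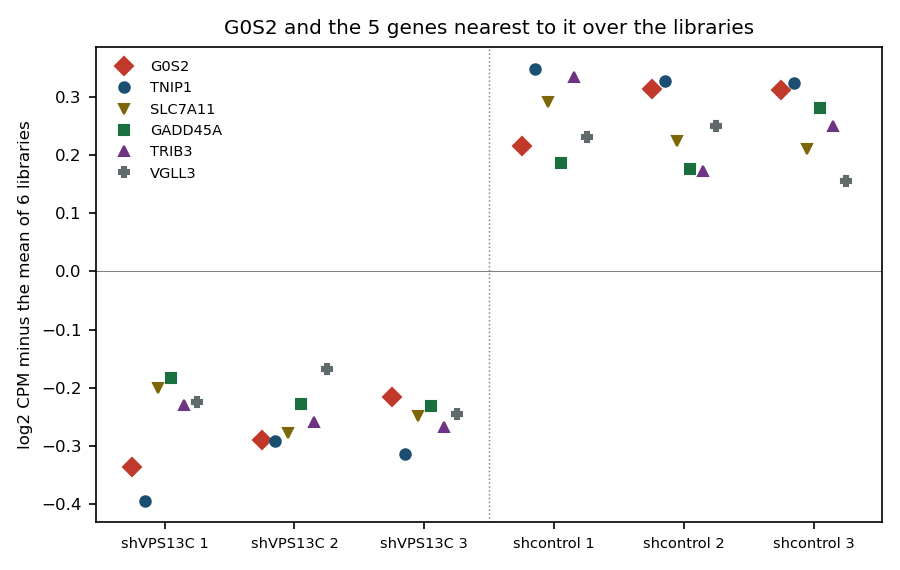
Log2 CPM minus the mean of the 6 libraries for G0S2 (red diamonds) and the 5 genes nearest to it, by library, with shVPS13C on the left and shcontrol on the right. All 6 genes lie below 0 in the 3 shVPS13C libraries and above 0 in the 3 shcontrol libraries.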

How the data were processed

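Total RNA was read as single-end 50-base reads on the DNBSEQ platform, per the labels' protocols. The build, hg38, is from the submitters' processing notes; no aligner, counter, annotation or strand setting is named in the labels. The deposited read counts are the authors' estimated counts per gene and per RefSeq transcript, not scaled, with 14.7% to 15.6% of gene values not whole. The authors' FPKM stands beside them, per the file headers. A further 30 per-sample columns, on other scales, were not used.

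Gene counts were rounded, filtered with filterByExpr (12671 genes left) and scaled by TMM factors (0.996 to 1.01). Groups were compared with the edgeR 4.0.16 quasi-likelihood test, two-sided, Benjamini-Hochberg adjusted over all genes tested, without a covariate, on all 6 libraries. Log2 differences are shVPS13C over shcontrol; SE and 95% intervals come from that fit, and CPM uses the TMM-scaled library size. Alternatives were DESeq2 1.42.0, upper quartile factors, no filter, limma 3.58.1 on log2(FPKM + 1), the replicate number as a block, and each library left out. The fit was run on simulated data in which all genes had a common spread, and no support is drawn from that run. Named genes were the 10, VPS13C, genes of the lists past the test, the 3 list genes with the highest FPKM, and the 5 nearest to G0S2; others were named after their values were seen. The 10 genes and the lists were chosen with earlier results of these data known. Of 97 listed symbols, matched as written, 86 are in the table. Chi-square per degree of freedom between replicate libraries of 1 group was 1.98 to 3.57, above counting error. Places and promoters are from RefSeq (GRCh38.p14), exon overlaps and 50-base stretches from GENCODE 29.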

Additional observations from a re-analysis of the deposited data

How the results depend on the processing

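All 111 recomputed log2 differences of the 10 genes stayed within 1 SD of the libraries of the reported value. These fits reuse the same libraries, all or all but 1, so that outcome was largely set in advance and is no separate support. Of the 111, 6 had the other sign, 3 in ABHD5 and 3 in HILPDA. Of these 6, 5 were with a library left out and 1 (ABHD5, -0.0055) with limma. The count of 570 genes past the test became 337 with DESeq2 (172 higher, 165 lower) and 147 with limma on log2(FPKM + 1) (63 higher, 84 lower). Leaving out single libraries gave 204 to 463 genes, 101 to 238 higher and 103 to 225 lower, the fewest without shVPS13C library 1. The 6 genes of the lists past the test became 2 with DESeq2, 0 with limma (18 at an unadjusted p under 0.05) and 0 to 6 with a library left out. The 0 was without shVPS13C library 1 (17 at an unadjusted p under 0.05), and the cause was not tested. With the replicate block, 483 genes passed, the same 6 list genes among them, and G0S2 stood at -0.56. No pairing by replicate number was seen: same-number deviations correlated at -0.158 to 0.0336, and 0 of 3 shVPS13C libraries correlated best with their own number. With 3 libraries in each group this cannot exclude shared cultures or days. Depth limits LIPE most, with 8 to 18 counts.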
